A study of Homo sapiens with 32 samples.

Results

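The genes described here are 10 genes of amino acid synthesis and of the stress response that controls it: ASS1, ASL, ASNS, PHGDH, PSAT1, PSPH, SHMT2, MTHFD2, CHAC1 and TRIB3. They were found by gene symbol among 23073 genes in the deposited expression table, each symbol in 1 row, and all 10 passed the filter on low values that 11890 genes passed. They were followed in 2 human acute myeloid leukaemia cell lines that carry the RUNX1-RUNX1T1 fusion, Kasumi-1 and SKNO-1, in 32 RNA sequencing libraries. Each line was given 1 of 4 agents for 24 or 72 h, with 2 biological replicates in each of the 16 groups. RN-1 blocks the histone demethylase KDM1A irreversibly and GSK690 blocks it reversibly, each given at 1 µM. The labels list GSK690* as the inactive isomer, also a 1 µM treatment in the titles, and DMSO, at 0.1%, was the vehicle. RN-1 and GSK690 are called the inhibitors below, and GSK690* and DMSO the controls. Both lines grew in RPMI, with 20% serum for Kasumi-1, and with 10% serum plus GM-CSF at 10 ng/mL for SKNO-1. For SKNO-1 the later time is 72 h in the titles and 4 days in the treatment protocol. A set below is 1 cell line at 1 time, with 4 inhibitor and 4 control libraries. The genes were selected on measured values of the inhibitors against the controls in these libraries, so their differences in that comparison are given as a description, with their SE and no test.

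Arginine is made in the cytoplasm from citrulline and aspartate. ASS1 joins them to argininosuccinate and ASL splits that into arginine and fumarate, so a cell without ASS1 must take up arginine. Serine is made from a glycolytic intermediate by PHGDH, PSAT1 and PSPH in turn. SHMT2 then turns serine into glycine in mitochondria and passes its carbon to folate, which MTHFD2 oxidizes for the synthesis of nucleotides. ASNS makes asparagine from aspartate and glutamine. When amino acids run short or unfolded proteins gather, kinases phosphorylate eIF2 alpha, general translation falls and that of the transcription factor ATF4 increases. ATF4 binds with C/EBP proteins and raises the genes of amino acid synthesis, transport and tRNA charging. CHAC1, which degrades glutathione, and TRIB3, a pseudokinase that feeds back on ATF4, are sensitive markers of this response.

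Promoter windows are shown for ASNS and CHAC1, known targets of ATF4 whose windows hold the letters of its site, and for ASS1, the member with the widest difference. Windows run from 250 bases before to 50 after a RefSeq transcript start (GRCh38.p14), and 12 windows matched 8 of the 10 members, with none for PSPH and SHMT2. The core of the C/EBP-ATF response element was searched as TGATGNAA and, on the other strand, as TTNCATCA. It is in 1270 of 35116 windows of the same length over all genes (3.62%), and in 2 of the 12 windows, 1 of ASNS and 1 of CHAC1. The E-box CACGTG, which is its own reverse complement, is in 2548 windows (7.26%) and in 1 member window, of ASS1. The motifs do not overlap in these windows, and capitals mark the match. The matching window of ASNS is chr7:97872359-97872658 on the minus strand, with the match at position -68 from the start. That of CHAC1 is chr15:40953221-40953520 on the plus strand, with the match at -209. That of ASS1 is chr9:130444711-130445010 on the plus strand, with the match at -71. ASNS and ASS1 each have another window, chr7:97872116-97872415 and chr9:130444457-130444756, that holds neither motif and is not shown. A match is a string of letters and not evidence that a protein binds there.
ASNS: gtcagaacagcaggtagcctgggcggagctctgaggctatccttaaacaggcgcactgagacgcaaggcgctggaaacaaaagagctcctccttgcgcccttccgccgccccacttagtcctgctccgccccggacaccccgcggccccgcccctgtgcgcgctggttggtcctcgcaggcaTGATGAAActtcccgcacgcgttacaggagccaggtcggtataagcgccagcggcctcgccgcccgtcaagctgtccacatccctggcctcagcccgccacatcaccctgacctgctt
CHAC1: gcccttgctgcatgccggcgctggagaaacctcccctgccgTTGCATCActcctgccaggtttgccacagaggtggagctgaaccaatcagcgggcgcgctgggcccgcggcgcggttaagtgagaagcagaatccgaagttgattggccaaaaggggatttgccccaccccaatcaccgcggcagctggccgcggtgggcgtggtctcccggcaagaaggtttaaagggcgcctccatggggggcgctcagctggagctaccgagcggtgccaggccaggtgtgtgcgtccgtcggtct
ASS1: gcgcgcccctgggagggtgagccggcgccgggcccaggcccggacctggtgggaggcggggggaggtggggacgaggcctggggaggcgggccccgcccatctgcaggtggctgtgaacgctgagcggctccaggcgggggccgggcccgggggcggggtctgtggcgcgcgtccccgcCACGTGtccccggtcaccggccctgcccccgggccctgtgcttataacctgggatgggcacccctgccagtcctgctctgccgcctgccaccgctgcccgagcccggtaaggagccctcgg

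The deposited sample table and the labels disagree on the line of the 16 libraries from 72 h, and groups here follow the labels. So grouped, the mean Pearson r of a 72 h library with the 24 h libraries was at least 0.974 for its own line and at most 0.870 for the other. Replicates correlated at 0.986 to 0.996 across genes. The myeloid marker MPO stood at 2190 to 6612 FPKM in Kasumi-1 and 1218 to 2816 FPKM in SKNO-1. RUNX1T1, the fusion partner, stood at 32.5 to 53.5 and 21.2 to 32.4 FPKM in the same order of lines. CD34, a progenitor marker, was at 63.9 to 245 FPKM in Kasumi-1 but at 0.117 to 4.64 FPKM in SKNO-1. The 4 T and NK cell and 4 fibroblast markers stayed at or under 0.472 FPKM, and of 4 epithelial markers EPCAM alone was higher, at 61.0 to 83.5 FPKM in Kasumi-1. The depth of the libraries is unknown because the table holds FPKM alone, a fragment count scaled to gene length and library size. In such bulk RNA fewer cells of a type and less RNA per cell cannot be told apart. ASS1, PSAT1, PSPH and MTHFD2 have processed or near-identical pseudogene copies that may share reads with them, so their absolute levels are uncertain.

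**Figure D1:**
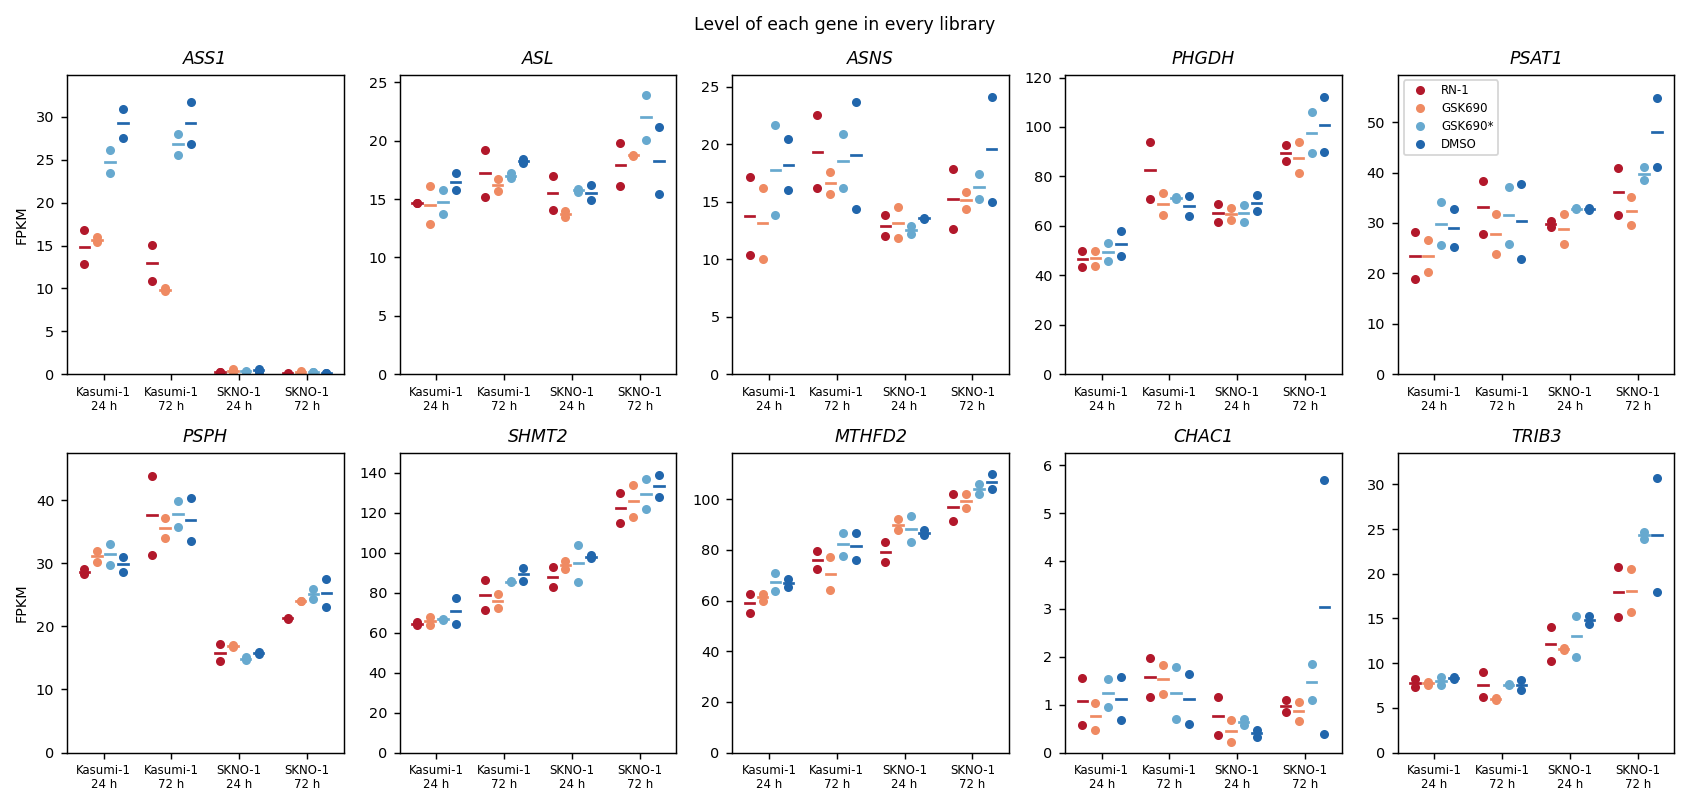
FPKM (y axis, from 0) of the 10 genes in every library, by cell line and time on the x axis; points are single libraries coloured by agent and short lines are means of 2. ASS1 is 9.76 to 16.8 FPKM in the inhibitor libraries and 23.5 to 31.7 FPKM in the control libraries of Kasumi-1, and at most 0.646 FPKM in SKNO-1, while the inhibitor and control points of the other genes mostly overlap.

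ASS1 (chromosome 9, 133320316 to 133376661, hg19) was lower with the inhibitors in Kasumi-1 at both times and near 0 throughout SKNO-1. In Kasumi-1 at 24 h it stood at 16.8 and 12.9 FPKM with RN-1 and 16.0 and 15.4 FPKM with GSK690, against 23.5 and 26.1 FPKM with GSK690* and 30.9 and 27.6 FPKM with DMSO. At 72 h it stood at 15.1 and 10.9 FPKM with RN-1 and 10.0 and 9.76 FPKM with GSK690, against 28.0 and 25.6 FPKM with GSK690* and 31.7 and 26.9 FPKM with DMSO. Every inhibitor library of Kasumi-1 lay below every control library of its time. The means were 15.3 ± 1.68 FPKM with the inhibitors and 27.0 ± 3.07 FPKM in controls at 24 h, and 11.4 ± 2.47 and 28.1 ± 2.63 FPKM at 72 h (SD, n = 4 each). The inhibitor mean was 56.5% of the control mean at 24 h and 40.8% at 72 h. On the scale of log2(FPKM + 1) the difference was -0.78 at 24 h and -1.24 at 72 h (SE 0.127), and it ran from -0.87 to -0.69 and from -1.35 to -1.13 with each library left out in turn.

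Both inhibitors showed the difference against their own control. RN-1 minus DMSO was -0.94 at 24 h and -1.13 at 72 h, and GSK690 minus its isomer GSK690* was -0.63 and -1.35 (log2, SE 0.18). In SKNO-1 all 16 libraries lay between 0 and 0.646 FPKM, with a median of 0.221 FPKM. There ASS1 averaged 0.268 ± 0.271 FPKM with the inhibitors and 0.398 ± 0.163 FPKM in controls at 24 h, and 0.199 ± 0.141 and 0.201 ± 0.0540 FPKM at 72 h. The sides overlapped at both times, and at this level a change could not be read.

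ASL (chromosome 7, 65540785 to 65558545), the next enzyme of arginine synthesis, did not share the pattern of ASS1. In Kasumi-1 it averaged 14.6 ± 1.29 FPKM with the inhibitors and 15.6 ± 1.47 FPKM in controls at 24 h, and 16.7 ± 1.76 and 17.6 ± 0.751 FPKM at 72 h (SD, n = 4 each). In SKNO-1 the means were 14.7 ± 1.60 FPKM with the inhibitors and 15.7 ± 0.549 FPKM in controls at 24 h, and 18.3 ± 1.59 and 20.1 ± 3.54 FPKM at 72 h. Its libraries overlapped in all 4 sets, and the inhibitor mean was 91.1% to 94.7% of the control mean. SKNO-1 thus held RNA of ASL at a level close to that of Kasumi-1 while ASS1 was near 0.

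ASNS (chromosome 7, 97481430 to 97501854), whose promoter letters are given above, differed between replicates by several FPKM in Kasumi-1. In Kasumi-1 at 24 h it stood at 17.1 and 10.4 FPKM with RN-1 and 16.2 and 10.0 FPKM with GSK690, against 21.7 and 13.8 FPKM with GSK690* and 20.4 and 16.0 FPKM with DMSO. Replicate 1 was the higher one with every agent, and among libraries with the same replicate number both inhibitor values lay below both control values. The same held in that set for PHGDH and PSAT1, whose libraries overlap over all 8, and for ASS1 and MTHFD2. In the other sets it held only for ASS1 and MTHFD2 in Kasumi-1 at 72 h, PSAT1 in SKNO-1 at 24 h and TRIB3 in SKNO-1 at 72 h. The genes were selected on this comparison and no share of all genes is given for this measure, so nothing is read from it. The means of ASNS in Kasumi-1 at 24 h were 13.4 ± 3.74 FPKM with the inhibitors and 18.0 ± 3.70 FPKM in controls, a log2 difference of -0.41 (SE 0.192) with overlapping libraries. At 72 h in Kasumi-1 they were 18.0 ± 3.10 and 18.8 ± 4.29 FPKM. In SKNO-1 ASNS averaged 13 ± 1.32 FPKM with the inhibitors and 13 ± 0.662 FPKM in controls at 24 h, and 15.1 ± 2.21 and 18.0 ± 4.26 FPKM at 72 h. Replicate 1 stood above replicate 2 with all 4 agents at both times in Kasumi-1 for 6 of the 10 genes: ASNS, PHGDH, PSAT1, SHMT2, MTHFD2 and CHAC1. What set the replicates apart was not tested.

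Of the serine enzymes PHGDH and PSPH differed little with the inhibitors. The inhibitor mean of PSAT1 ran from 78.1% to 98.5% of the control mean over the 4 sets. PHGDH (chromosome 1, 120202421 to 120286838), the first enzyme, averaged 46.8 ± 3.59 FPKM with the inhibitors and 51.2 ± 5.42 FPKM in controls of Kasumi-1 at 24 h, and 75.6 ± 12.8 and 69.7 ± 3.84 FPKM at 72 h. In SKNO-1 it averaged 64.9 ± 3.65 FPKM with the inhibitors and 67.1 ± 4.51 FPKM in controls at 24 h, and 88.5 ± 5.91 and 99.3 ± 11.4 FPKM at 72 h. The inhibitor and control libraries of PHGDH overlapped in every set, and its side changed between the times in Kasumi-1, with log2 differences of -0.12 and 0.10 (SE 0.0983).

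PSAT1 (chromosome 9, 80912059 to 80945009) is the second enzyme. Like ASS1, ASL, ASNS, SHMT2, MTHFD2 and TRIB3, it was lower with the inhibitors by means in all 4 sets. For ASS1 in SKNO-1 at 72 h and ASNS in SKNO-1 at 24 h the inhibitor mean was 99% and 99.9% of the control mean, no readable difference. In SKNO-1 at 24 h PSAT1 stood at 29.1 and 30.4 FPKM with RN-1 and 25.9 and 31.8 FPKM with GSK690, against 32.7 and 32.9 FPKM with GSK690* and 32.5 and 33.0 FPKM with DMSO. That was the 1 set in which all of its inhibitor libraries lay below all controls, and the inhibitor mean was 89.4% of the control mean. In SKNO-1 at 72 h it averaged 34.3 ± 5.01 FPKM with the inhibitors and 43.8 ± 7.40 FPKM in controls, where DMSO replicate 2 stood apart at 54.8 FPKM. In Kasumi-1 the means were 23.5 ± 4.64 FPKM with the inhibitors and 29.4 ± 4.69 FPKM in controls at 24 h, and 30.5 ± 6.11 and 30.9 ± 7.71 FPKM at 72 h. PSPH (chromosome 7, 56078744 to 56119297), which releases serine, had inhibitor means of 89.9% to 106% of the control means, with overlap in every set.

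SHMT2 and MTHFD2 had the highest control means of the 10 per gene length, at both times in both lines. SHMT2 (chromosome 12, 57623110 to 57628718) averaged 77.3 ± 6.92 FPKM with the inhibitors and 87.3 ± 3.31 FPKM in controls of Kasumi-1 at 72 h, a log2 difference of -0.18 (SE 0.0771) with overlapping libraries. In the other 3 sets its inhibitor mean was 94.2% to 94.6% of the control mean. MTHFD2 (chromosome 2, 74425689 to 74444692) stood in Kasumi-1 at 24 h at 62.6 and 55.3 FPKM with RN-1 and 62.8 and 60.0 FPKM with GSK690, against 70.9 and 63.8 FPKM with GSK690* and 68.5 and 65.3 FPKM with DMSO. All inhibitor libraries lay below all controls there, the highest inhibitor value of 62.8 FPKM next to the lowest control of 63.8 FPKM. The means were 60.2 ± 3.46 FPKM with the inhibitors and 67.1 ± 3.21 FPKM in controls, a log2 difference of -0.16 (SE 0.0706). At 72 h in Kasumi-1 the difference was -0.16 again, at 73.4 ± 6.91 and 81.8 ± 5.80 FPKM, with overlap.

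CHAC1 (chromosome 15, 41245160 to 41248710) reached 1 FPKM in 16 of 32 libraries and varied widely between replicates. In SKNO-1 at 72 h it stood at 1.10 and 0.853 FPKM with RN-1 and 1.06 and 0.667 FPKM with GSK690, against 1.09 and 1.85 FPKM with GSK690* and 0.383 and 5.69 FPKM with DMSO. The DMSO pair held both the lowest and the highest value of the set. TRIB3 (chromosome 20, 361261 to 378203) stood in the same set at 15.2 and 20.8 FPKM with RN-1 and 15.7 and 20.5 FPKM with GSK690, against 24.7 and 23.9 FPKM with GSK690* and 18.0 and 30.7 FPKM with DMSO. DMSO replicate 2 was the highest of the 8 libraries for 8 of the 10 genes, all but ASS1 and ASL, with ASNS at 24.1 FPKM and PHGDH at 112 FPKM. With that library the log2 differences of CHAC1, TRIB3, PSAT1 and ASNS were -0.51, -0.40, -0.34 and -0.22. Without it they were 0.06, -0.22, -0.24 and -0.06. In the other sets CHAC1 averaged 0.915 ± 0.494 FPKM with the inhibitors and 1.19 ± 0.436 FPKM in controls of Kasumi-1 at 24 h, 1.55 ± 0.409 and 1.18 ± 0.620 FPKM at 72 h, and 0.611 ± 0.413 and 0.523 ± 0.155 FPKM in SKNO-1 at 24 h.

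TRIB3 in Kasumi-1 averaged 7.76 ± 0.389 FPKM with the inhibitors and 8.16 ± 0.442 FPKM in controls at 24 h, and 6.78 ± 1.46 and 7.56 ± 0.459 FPKM at 72 h. In SKNO-1 at 24 h it averaged 11.9 ± 1.62 FPKM with the inhibitors and 13.9 ± 2.19 FPKM in controls. Across the 10 genes the inhibitor side was the lower one for 10 in Kasumi-1 at 24 h, 8 at 72 h, 8 in SKNO-1 at 24 h and 10 at 72 h. The median log2 differences were -0.14, -0.06, -0.07 and -0.15, where the medians over all genes tested were -0.01, -0.02, -0.02 and -0.02. The median in Kasumi-1 at 72 h was 0.03 without RN-1 replicate 2. Leaving ASS1 aside, the differences ran from -0.41 to -0.04, -0.18 to 0.25, -0.21 to 0.08 and -0.51 to -0.08. The 4 inhibitor libraries did not overlap the 4 controls for 2 of the 10 genes in Kasumi-1 at 24 h (ASS1 and MTHFD2), 1 at 72 h (ASS1), 1 in SKNO-1 at 24 h (PSAT1) and 0 at 72 h. Over all genes tested the share without overlap was 32.6%, 28.7%, 15.2% and 15.3% in the same order. The genes were selected on this comparison, so nothing is read from these shares.

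**Figure D2:**
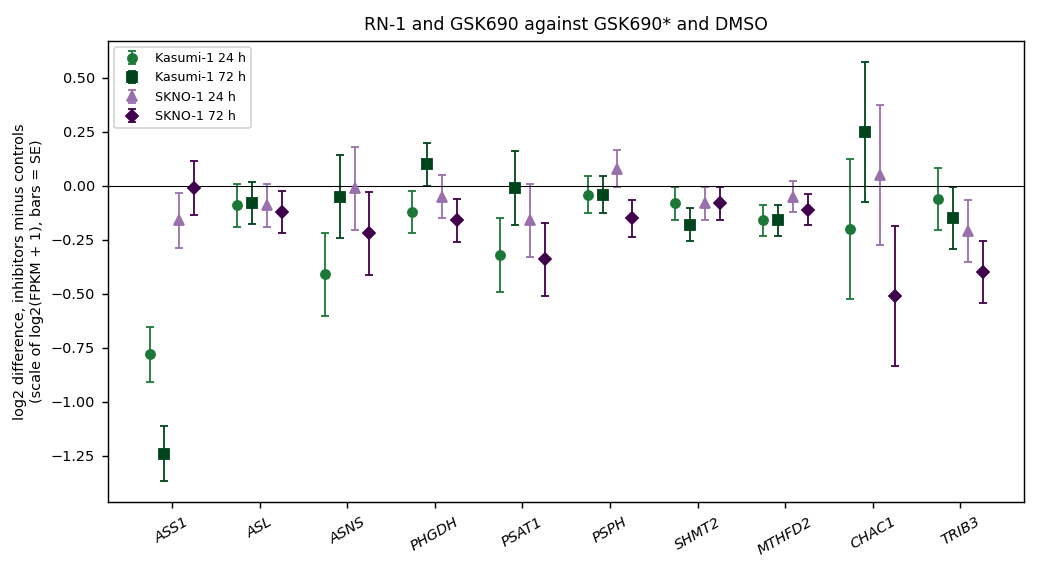
Log2 difference of the inhibitors (RN-1 and GSK690) minus the controls (GSK690* and DMSO) on the y axis, on the scale of log2(FPKM + 1), for the 10 genes on the x axis; each point is 1 cell line at 1 time, 4 libraries a side, and bars are the SE of the fit. ASS1 in Kasumi-1 lies at -0.78 and -1.24, and every other point lies between -0.51 and 0.25.

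The irreversible and the reversible inhibitor were set against each other at the same dose and time, a contrast that the selection did not use. None of the 10 genes differed between RN-1 and GSK690 in any of the 4 sets by limma (lowest adjusted p = 0.676), and none had an unadjusted p under 0.05. Over all genes the share called was 0% in Kasumi-1 at 24 h, 0.00841% (1 gene) at 72 h, 0% in SKNO-1 at 24 h and 0% at 72 h, with 86, 839, 613 and 120 genes at an unadjusted p under 0.05. The widest difference for ASS1 was 0.35 in Kasumi-1 at 72 h (95% confidence interval -0.03 to 0.72, limma adjusted p = 0.676), with RN-1 the higher. In that set the difference of PHGDH was 0.25 (-0.04 to 0.54) and that of TRIB3 0.28 (-0.15 to 0.70). The intervals of CHAC1 were the widest, from -0.74 to 1.17 in Kasumi-1 at 24 h, so a sizeable difference for CHAC1 was not detectable in these libraries.

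The inactive isomer was set against the vehicle in the same way. None of the 10 genes differed between GSK690* and DMSO in any set (limma adjusted p = 1 for all), and none had an unadjusted p under 0.05. The share of all genes called was 0% in each of the 4 sets, with 305, 111, 218 and 268 genes at an unadjusted p under 0.05. For ASS1 in Kasumi-1 the difference was -0.23 at 24 h (-0.60 to 0.15) and -0.12 at 72 h (-0.50 to 0.25). Over both comparisons in the 4 sets the differences of the 10 genes lay between -0.32 and 0.35 in log2. RN-1 and GSK690 are different molecules, while GSK690 and GSK690* are isomers. Of that pair GSK690 gave the ASS1 values of 16.0 and 15.4 FPKM and GSK690* those of 23.5 and 26.1 FPKM in Kasumi-1 at 24 h. At 72 h the values were 10.0 and 9.76 FPKM with GSK690 and 28.0 and 25.6 FPKM with GSK690*. These values belong to the comparison on which the genes were selected, and whether KDM1A accounts for them was not tested.

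The lines themselves differed without an inhibitor. ASS1 averaged 27.0 FPKM in Kasumi-1 and 0.398 FPKM in SKNO-1 controls at 24 h, and 28.1 and 0.201 FPKM at 72 h, 68-fold and 139-fold higher in Kasumi-1. The log2 difference was 4.33 at 24 h and 4.59 at 72 h (SE 0.127). ASS1 passed the filter on low values through its 16 Kasumi-1 libraries alone, so that it differed between the lines follows from its being kept. PSPH was also higher in Kasumi-1, at 30.7 ± 1.89 FPKM against 15.4 ± 0.621 FPKM in SKNO-1 at 24 h, and 37.4 ± 3.28 against 25.2 ± 1.90 FPKM at 72 h (log2 0.95 and 0.55, limma adjusted p = 2.08e-09 and 7.25e-06). TRIB3 was lower, at 8.16 ± 0.442 FPKM in Kasumi-1 against 13.9 ± 2.19 FPKM in SKNO-1 at 24 h, and 7.56 ± 0.459 against 24.3 ± 5.20 FPKM at 72 h. Its log2 differences of -0.69 and -1.54 had limma adjusted p = 2.15e-04 and 3.23e-09.

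SHMT2, PHGDH and MTHFD2 were lower in Kasumi-1 at both times. SHMT2 averaged 68.7 FPKM in Kasumi-1 and 96.4 FPKM in SKNO-1 at 24 h and 87.3 and 132 FPKM at 72 h (log2 -0.48 and -0.59). PHGDH differed by -0.39 and -0.50 and MTHFD2 by -0.38 and -0.36 in log2 (limma adjusted p from 6.63e-05 to 0.0014). In all, ASS1 included, 6 of 10 genes passed at 24 h, 2 higher and 4 lower in Kasumi-1, where 69.1% of all genes passed, and 7 of 10 at 72 h, 2 higher and 5 lower, where 70.8% did. Both shares lie near those of all genes. PSAT1 passed at 72 h alone (log2 -0.51, limma adjusted p = 0.0109). Its call ended without Kasumi-1 DMSO replicate 2, Kasumi-1 GSK690* replicate 2 or SKNO-1 DMSO replicate 2 (adjusted p = 0.0984, 0.0730 and 0.0594, limma) and with a term for the library name series (0.0936). ASL, ASNS and CHAC1 passed at neither time. ATF4 mRNA was lower in Kasumi-1, at 170 ± 8.14 FPKM against 235 ± 19.2 FPKM in SKNO-1 at 24 h (log2 -0.46, limma adjusted p = 1.79e-05), and 172 ± 7.29 against 275 ± 19.6 FPKM at 72 h. The lines were grown with different serum levels, and SKNO-1 with GM-CSF, so line and culture conditions cannot be told apart.

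**Figure D3:**
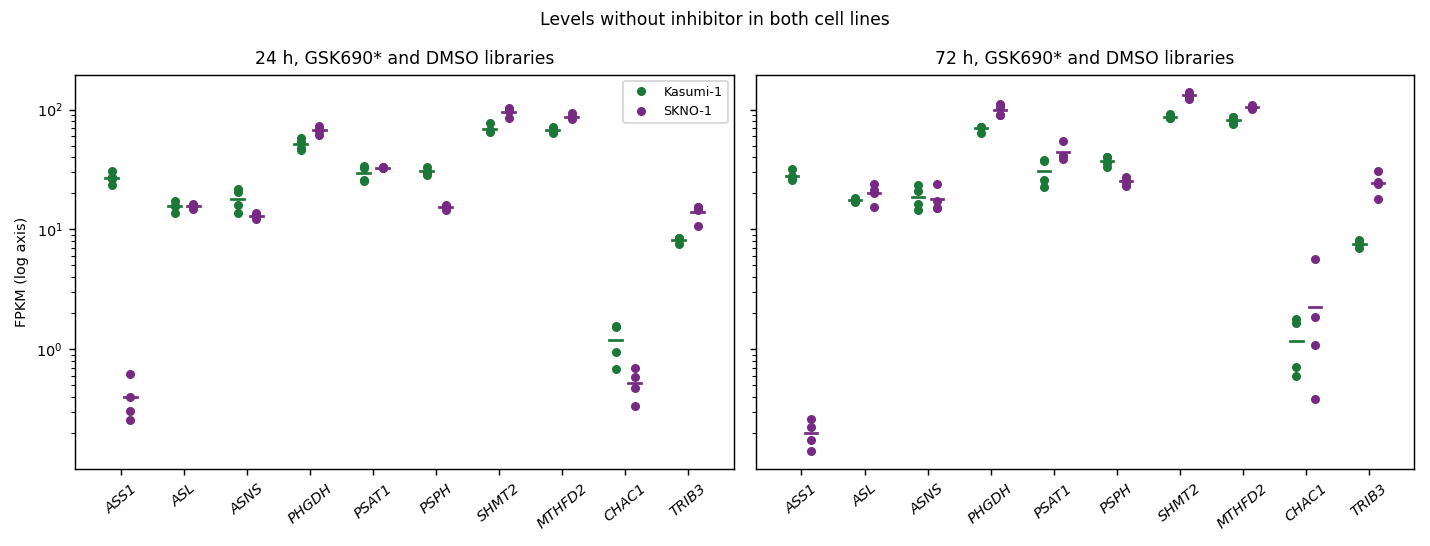
FPKM (y axis, log scale) of the 10 genes in the GSK690* and DMSO libraries of Kasumi-1 (left of each pair) and SKNO-1 at 24 h and 72 h; points are libraries, 4 per line and time, and short lines their means. ASS1 averages 27.0 FPKM in Kasumi-1 and 0.398 FPKM in SKNO-1 at 24 h, and in Kasumi-1 the means run from SHMT2 at 68.7 FPKM to CHAC1 at 1.19 FPKM.

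In order of level in Kasumi-1 controls at 24 h, per gene length, SHMT2 (68.7 FPKM) and MTHFD2 (67.1 FPKM) came first and lay within the spread of the libraries. PHGDH followed at 51.2 ± 5.42 FPKM. PSPH, PSAT1 and ASS1 at 30.7, 29.4 and 27.0 FPKM did not differ beyond their spread, nor did ASNS and ASL at 18.0 and 15.6 FPKM. TRIB3 and CHAC1 stood lowest. In SKNO-1 controls at 24 h the order differed below PSAT1 at 32.8 FPKM. There ASL at 15.7 FPKM, PSPH at 15.4 FPKM, TRIB3 at 13.9 FPKM and ASNS at 13 FPKM came close together, and CHAC1 and ASS1 were last. At 72 h TRIB3 at 24.3 FPKM stood above ASL at 20.1 FPKM and ASNS at 18.0 FPKM by means.

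The later controls were set against the earlier ones. At 72 h SKNO-1 controls had PSPH at 25.2 ± 1.90 FPKM, against 15.4 ± 0.621 FPKM at 24 h (log2 0.68, limma adjusted p = 2.05e-05). TRIB3 stood there at 24.3 ± 5.20 FPKM at 72 h, against 13.9 ± 2.19 FPKM at 24 h (log2 0.75, limma adjusted p = 5.07e-04). The median log2 difference over all genes was itself 0.22 in Kasumi-1 and 0.20 in SKNO-1. In SKNO-1 7 of 10 genes passed, all higher at 72 h (CHAC1, TRIB3, PSPH, PHGDH, SHMT2, ASL and MTHFD2), where 45.2% of all genes passed. In Kasumi-1 4 passed, all higher at 72 h (PHGDH, SHMT2, MTHFD2 and PSPH), where 52.1% did. Relative to the median of all genes TRIB3, PSPH and PHGDH were higher by 0.55, 0.48 and 0.35 in SKNO-1, while PHGDH, SHMT2, MTHFD2 and PSPH were higher by 0.22, 0.12, 0.06 and 0.05 in Kasumi-1.

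With quantile normalization or scaling by the median of ratios, 0 of the 10 genes passed limma in Kasumi-1 (3 and 2 at an unadjusted p under 0.05) and 4 in SKNO-1, PHGDH, PSPH, SHMT2 and TRIB3. The call of CHAC1 in SKNO-1 (log2 0.84, limma adjusted p = 0.0393) ended without any 1 of 6 of its 8 control libraries, and its log2 difference was 0.28 (0.386) without DMSO 72 h replicate 2. That of ASL in SKNO-1 ended without DMSO 72 h replicate 2 or GSK690* 72 h replicate 1 (0.0846 and 0.0559). That of PSPH in Kasumi-1 ended without DMSO 72 h replicate 1, GSK690* 72 h replicate 1 or GSK690* 24 h replicate 1 (0.0783, 0.0528 and 0.0520). The library names begin with SL at 24 h and with CM or CP at 72 h, so time and library series cannot be told apart.

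The rest of the pathways was followed in 92 further genes grouped by role, of which 84 passed the filter on low values. The others were ARG1, CPS1, NAGS, NOS2, OTC, NUPR1, ALDH1L1 and GLDC. The lists were chosen with earlier results of these data known. SLC6A9 passed the filter through controls alone (3 libraries of Kasumi-1 and 2 of SKNO-1) and GDF15 through inhibitors alone. Both stay in the counts, but their values are a description. The 84 genes were compared between inhibitors and controls, with p adjusted over all genes. In Kasumi-1 at 24 h 24 fell, 5 rose and 55 did not pass, which is 34.5% called where 20.9% of all genes were. At 72 h 18 fell and 7 rose, 29.8% where 25.7% of all genes were called. With quantile normalization 17 fell and 7 rose in Kasumi-1 at 24 h. In SKNO-1 at 24 h 6 fell and 3 rose (5 and 4 with quantile normalization, 6 and 5 with the median of ratios), 10.7% where 9.08% were, and at 72 h 9 fell and 3 rose, 14.3% where 11.1% were. The median log2 difference of the 84 was -0.15, -0.13, -0.12 and -0.13 in the same order, where the median of all genes was -0.01 to -0.02. With each library left out in turn the count of 29 in Kasumi-1 at 24 h fell to 9 without RN-1 replicate 2, 10 without GSK690 replicate 2, 11 without DMSO replicate 1 or GSK690* replicate 1 and 19 without GSK690 replicate 1. The count of 25 at 72 h fell to 13 without GSK690* replicate 1 and to 16 without DMSO replicate 1 or GSK690 replicate 2. In SKNO-1 the count of 9 at 24 h was 1 without RN-1 replicate 1 and 18 without GSK690 replicate 2. It was 2 without GSK690 replicate 1, DMSO replicate 1 or DMSO replicate 2, 14 without RN-1 replicate 2 and 3 without GSK690* replicate 2. The count of 12 at 72 h was 6 without RN-1 replicate 2 or GSK690* replicate 1, and 5 without GSK690 replicate 2. Of the 29, 25, 9 and 12 genes called, 7, 12, 1 and 1 kept their call in each of the 8 fits without 1 library of the set.

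**Figure D4:**
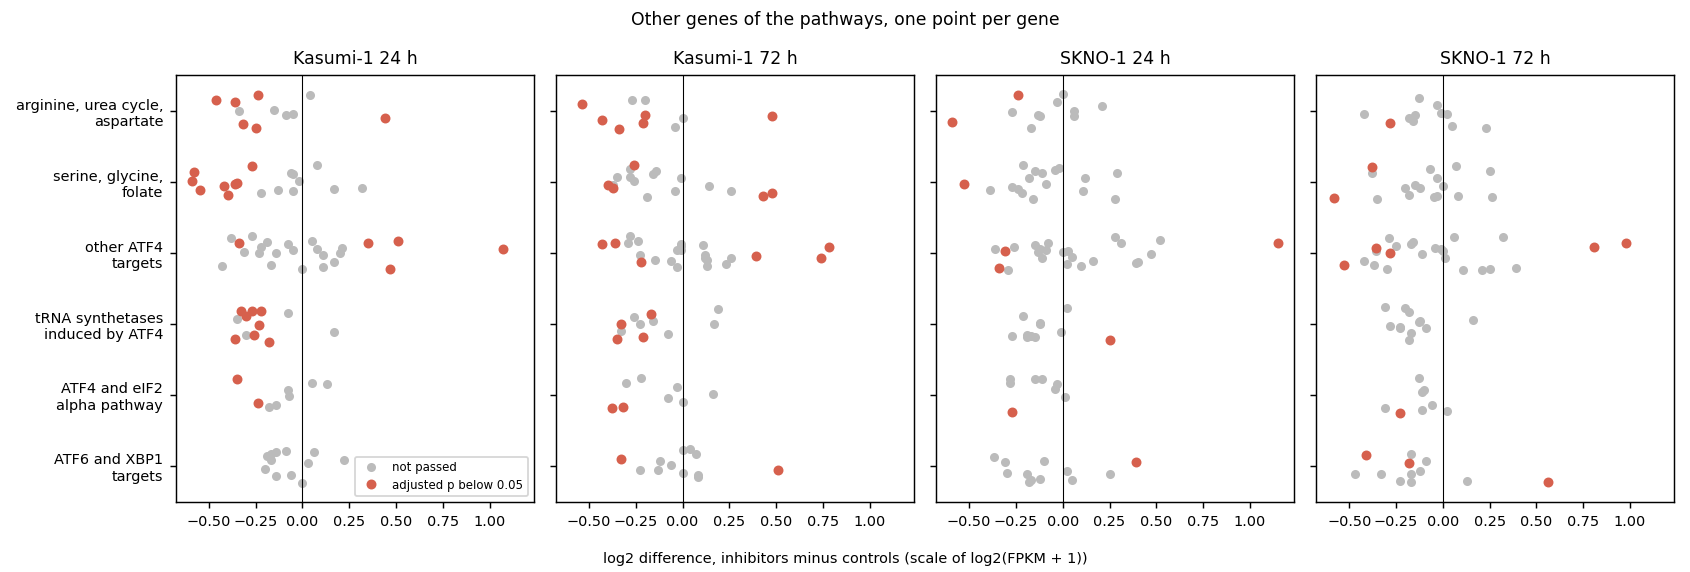
Log2 difference, inhibitors minus controls (x axis, scale of log2(FPKM + 1)), of the 84 tested pathway genes in 6 lists (rows) in each line and time (panels); each point is 1 gene, coloured where its limma adjusted p is below 0.05, with a random vertical offset. In Kasumi-1 at 24 h 8 of 12 tRNA synthetases lie coloured left of 0, and in SKNO-1 at 72 h none does.

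The cytoplasmic tRNA synthetases, which charge tRNAs with amino acids and are induced by ATF4, lay mostly below 0. In Kasumi-1 8 of 12 fell and 0 rose at 24 h, and 4 fell and 0 rose at 72 h. In SKNO-1 0 fell and 1 rose at 24 h (SARS, log2 0.25, limma adjusted p = 0.0243), and 0 passed at 72 h by limma, with 8 at an unadjusted p under 0.05. Their median log2 differences were -0.26 and -0.19 in Kasumi-1 and -0.16 and -0.18 in SKNO-1. In Kasumi-1 the shares called were 66.7% and 33.3%, where 20.9% and 25.7% of all genes were. The count of 8 fallers in Kasumi-1 at 24 h was 3 with quantile normalization and 6 with the median of ratios, and that of 4 at 72 h was 3 and 2, with 1 riser in each, and in SKNO-1 at 72 h quantile normalization gave 1 riser. Of these calls in Kasumi-1, IARS at 24 h, and IARS and LARS at 72 h, held in every fit without 1 library. The call of SARS ended without any 1 of 5 of its 8 libraries (DMSO replicates 1 and 2, RN-1 replicate 1, GSK690 replicate 1 and GSK690* replicate 2, adjusted p = 0.0592 to 0.125, limma).

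Genes of arginine, the urea cycle and aspartate had 5 of 11 down and 1 up in Kasumi-1 at each time, and 2 and 1 down with 0 up in SKNO-1 at 24 and 72 h. In Kasumi-1 that was 54.5% called at each time, where 20.9% and 25.7% of all genes were, and in SKNO-1 18.2% and 9.09%, where 9.08% and 11.1% were. With quantile normalization 3 were down at 24 h and 4 at 72 h in Kasumi-1, with 0 up. SLC7A1 alone of the 6 called kept its call in every fit without 1 library, at each time in Kasumi-1. SLC7A1, the main importer of arginine, averaged 7.03 ± 0.627 FPKM with the inhibitors and 9.31 ± 0.426 FPKM in controls of Kasumi-1 at 24 h, and 8.86 ± 0.545 and 12.3 ± 0.795 FPKM at 72 h. It fell by 0.36 and 0.43 on the log2 scale (SE 0.0632, limma adjusted p = 3.83e-04 and 3.79e-05), without overlap, and kept both calls without each library in turn. In SKNO-1 it averaged 31.4 ± 1.01 FPKM with the inhibitors and 37.2 ± 1.81 FPKM in controls at 24 h (log2 -0.24, limma adjusted p = 0.0221), a call that ended without DMSO replicate 1, RN-1 replicate 1, GSK690* replicate 1 or GSK690 replicate 2 (adjusted p = 0.0588 to 0.0866, limma). At 72 h the log2 difference was -0.18 (limma adjusted p = 0.0635). ODC1, which starts the synthesis of polyamines from ornithine, fell by 0.46 and 0.54 in Kasumi-1, to 74.6 ± 10.4 FPKM with the inhibitors against 103 ± 14.6 FPKM in controls at 24 h, and 63.3 ± 10.9 against 92.3 ± 13.3 FPKM at 72 h. Its limma adjusted p of 0.0294 at 24 h became 0.129 to 0.147 without DMSO replicate 1, GSK690* replicate 1, RN-1 replicate 2 or GSK690 replicate 2. That of 0.00927 at 72 h became 0.0534 to 0.0617 without DMSO replicate 1, GSK690* replicate 1 or GSK690 replicate 2. ARG2, a mitochondrial arginase, fell by 0.59 in SKNO-1 at 24 h (limma adjusted p = 0.0318), which ended without any 1 of 5 libraries (DMSO replicates 1 and 2, RN-1 replicate 1, GSK690 replicate 1, GSK690* replicate 2, adjusted p = 0.0600 to 0.169).

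Of 17 tested genes of serine, glycine and folate metabolism, 8 fell and 0 rose in Kasumi-1 at 24 h, 3 fell and 2 rose at 72 h, and 1 and 2 fell in SKNO-1 at 24 and 72 h. That was 47.1%, 29.4%, 5.88% and 11.8% called, where 20.9%, 25.7%, 9.08% and 11.1% of all genes were. TYMS, which makes thymidylate for DNA, averaged 97.9 ± 7.79 FPKM with the inhibitors and 144 ± 14.8 FPKM in controls of Kasumi-1 at 24 h. It fell there by 0.55 (SE 0.0971, limma adjusted p = 4.48e-04) and kept the call without each library. At 72 h TYMS averaged 139 ± 13 and 158 ± 2.08 FPKM (limma adjusted p = 0.163). CBS, which draws serine into cysteine synthesis, fell by 0.58 in Kasumi-1 at 24 h, by 0.53 in SKNO-1 at 24 h and by 0.58 at 72 h (limma adjusted p = 0.0132, 0.0424 and 0.0210). In SKNO-1 at 72 h it averaged 30.9 ± 6.03 FPKM with the inhibitors and 47.2 ± 10.8 FPKM in controls. The call of CBS in Kasumi-1 ended without RN-1 replicate 2 or GSK690 replicate 2 (0.0515 and 0.106). In SKNO-1 it ended at 24 h without each library but GSK690 replicate 2 (0.0881 to 0.201), and at 72 h without RN-1 replicate 1, GSK690 replicate 1, GSK690* replicate 1 or DMSO replicate 2 (0.0569 to 0.102). ALDH1L2, the mitochondrial formyl-folate dehydrogenase, fell by 0.59 in Kasumi-1 at 24 h, to 2.79 ± 0.579 FPKM with the inhibitors against 4.71 ± 0.770 FPKM in controls (limma adjusted p = 0.0305). That call ended without DMSO replicate 1, GSK690* replicate 1, RN-1 replicate 2 or GSK690 replicate 2 (0.113 to 0.147).

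The other ATF4 targets had calls in both directions: of 24 tested, 4 rose and 1 fell in Kasumi-1 at 24 h, 3 and 3 at 72 h, 1 and 2 in SKNO-1 at 24 h, and 2 and 3 at 72 h. The shares called were 20.8%, 25%, 12.5% and 20.8%, where 20.9%, 25.7%, 9.08% and 11.1% of all genes were. Of the 2 that rose in SKNO-1 at 72 h, 1 was GDF15, which passed the filter on low values through the inhibitors alone. Its rise is a description, so nothing is read from the share of that set. The balance depended on the scaling: with quantile normalization 5 rose and 4 fell in Kasumi-1 at 24 h, and 2 rose and 1 fell at 24 h and 2 rose and 5 fell at 72 h in SKNO-1, while with the median of ratios 2 rose and 2 fell in SKNO-1 at 24 h. DDIT4, an inhibitor of mTOR signalling that several stresses induce, rose in all 4 sets. It averaged 8.11 ± 0.785 FPKM with the inhibitors and 3.35 ± 0.501 FPKM in controls of Kasumi-1 at 24 h, 6.79 ± 0.342 and 3.62 ± 1.10 FPKM at 72 h, 10.1 ± 3.61 and 3.88 ± 1.28 FPKM in SKNO-1 at 24 h, and 12.7 ± 2.33 and 6.25 ± 2.64 FPKM at 72 h. The inhibitor libraries lay above all controls in every set. The log2 differences were 1.07, 0.78, 1.15 and 0.98 (SE 0.226, limma adjusted p = 0.00205, 0.0142, 0.00226 and 0.00618). Its call in Kasumi-1 at 72 h ended without GSK690* replicate 1 (0.0808) and that in SKNO-1 at 72 h without DMSO replicate 1 (0.0544). In fits on the 8 libraries of a set alone the SKNO-1 calls ended at both times (0.0973 and 0.112). XPOT, which exports tRNA from the nucleus, fell in all 4 sets, by 0.34, 0.43, 0.31 and 0.28 (SE 0.0758, limma adjusted p = 0.00334, 2.68e-04, 0.0119 and 0.0201). It averaged 31.2 ± 1.91 FPKM with the inhibitors and 42.2 ± 1.94 FPKM in controls of Kasumi-1 at 72 h. Its SKNO-1 calls ended at 24 h without RN-1 replicate 1, GSK690 replicate 1, DMSO replicate 2 or GSK690* replicate 2 (0.0596 to 0.117), and at 72 h without DMSO replicate 1, RN-1 replicate 2, GSK690* replicate 2 or GSK690 replicate 2 (0.0610 to 0.101). They also ended with quantile normalization (0.0583 and 0.0960). For XPOT, GSK690* minus DMSO was -0.02, -0.08, -0.01 and -0.21 in the 4 sets (log2, SE 0.107), and none passed.

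PPP1R15A, which returns eIF2 alpha to its unphosphorylated form, averaged 15.3 ± 1.39 FPKM with the inhibitors and 8.75 ± 0.495 FPKM in controls of Kasumi-1 at 72 h. It rose there by 0.74 (SE 0.169, limma adjusted p = 0.00274), a call kept without each library. At 24 h it rose by 0.51 (limma adjusted p = 0.0358), a call that ended without any 1 of the 8 libraries (0.0550 to 0.117). In SKNO-1 its differences of 0.40 and 0.32 did not pass (limma adjusted p = 0.152 and 0.234). GDF15, a secreted stress cytokine, was listed at or near 0 in Kasumi-1 and averaged 0.950 ± 0.434 FPKM with the inhibitors and 0.0897 ± 0.0515 FPKM in controls of SKNO-1 at 72 h, a log2 difference of 0.81. It reached 1 FPKM in 5 inhibitor libraries of SKNO-1 and in 0 controls, so it passed the filter on low values through the inhibitors alone, and its values are a description, although it is 1 of the 12 genes counted in that set. SLC7A11, the cystine importer, fell by 0.53 in the same set, to 2.16 ± 0.776 FPKM with the inhibitors against 3.56 ± 1.13 FPKM in controls (limma adjusted p = 0.0149), and the call ended without RN-1 replicate 2 or GSK690 replicate 2 (0.110 and 0.106). GSK690* minus DMSO was itself -0.62 for SLC7A11 there (log2, SE 0.195), which did not pass. The difference of the inhibitors was thus wider against DMSO than against GSK690*.

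ATF4 mRNA passed in no set. It averaged 176 ± 3.11 FPKM with the inhibitors and 170 ± 8.14 FPKM in controls of Kasumi-1 at 24 h, 193 ± 18.8 and 172 ± 7.29 FPKM at 72 h, 237 ± 23.1 and 235 ± 19.2 FPKM in SKNO-1 at 24 h, and 256 ± 4.42 and 275 ± 19.6 FPKM at 72 h. The limma adjusted p was 0.715, 0.127, 0.953 and 0.432. ATF4 is regulated mainly in translation, which these data do not measure. Of the 8 genes of the list of ATF4 and the eIF2 alpha pathway, 2, 2, 1 and 1 fell in the 4 sets and 0 rose. That was 25% called in Kasumi-1 and 12.5% in SKNO-1 at each time, where 20.9%, 25.7%, 9.08% and 11.1% of all genes were. With quantile normalization the list had 0 calls in Kasumi-1 at 24 h and in SKNO-1 at both times, and 1 riser with 3 fallers in Kasumi-1 at 72 h, and with the median of ratios it had 0 calls in SKNO-1 at 72 h. The 12 ATF6 and XBP1 targets, which mark other branches of the endoplasmic reticulum stress response, had 0 calls by limma in Kasumi-1 at 24 h (2 at an unadjusted p under 0.05), 1 riser and 1 faller at 72 h, 1 up in SKNO-1 at 24 h, and 1 up and 2 down at 72 h. Their shares called were 0%, 16.7%, 8.33% and 25% in the same order of sets, beside the shares of all genes given above. With quantile normalization they had 1 up in Kasumi-1 at 24 h, and 1 up and 1 down in SKNO-1 at each time. HERPUD1, a component of protein degradation at that membrane, rose by 0.51 in Kasumi-1 at 72 h (limma adjusted p = 8.01e-05). EDEM1, which sends misfolded glycoproteins to degradation, rose by 0.56 in SKNO-1 at 72 h (limma adjusted p = 0.00138), to 44.1 ± 2.59 FPKM with the inhibitors against 29.7 ± 3.13 FPKM in controls. Both kept these calls without each library.

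Whether the response of these pathway genes differed between the lines or between the times was tested as a difference of differences. Between the lines 0 of 84 differed at 24 h by limma, where 1.12% of all genes did, and 1 of 84 at 72 h, where 3.47% did. Between 72 and 24 h 0 of 84 differed in Kasumi-1, where 0.202% of all genes did, and 0 in SKNO-1, where 0% did. At an unadjusted p under 0.05 the counts were 7, 13, 5 and 0 in the same order. The gene at 72 h was DDIT3, the stress factor CHOP, singled out after its values were seen. It averaged 19.5 ± 3.52 FPKM with the inhibitors and 14.5 ± 1.67 FPKM in controls of Kasumi-1 at 72 h, and 11 ± 0.838 and 12.4 ± 0.975 FPKM in SKNO-1. The log2 differences were 0.39 in Kasumi-1 and -0.16 in SKNO-1, and their difference of 0.55 (SE 0.150, limma adjusted p = 0.0452) ended without any 1 of 11 of the 16 libraries (0.0648 to 0.136), with a pseudocount of 0.1 (0.0623), without the filter (0.0629) and in a fit on these libraries alone (0.130). For the 10 selected genes these differences are a description: for ASS1 the response in Kasumi-1 minus that in SKNO-1 was -0.63 at 24 h and -1.23 at 72 h in log2.

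Genes whose pattern was most like that of ASS1 were sought over all 32 libraries after centring each set, which leaves the differences among agents and replicates. By Pearson r these were KCNJ12 (0.923), GALNT18 (0.895), CCL5 (0.894), DKC1 (0.888) and LYG2 (0.875). All 5 stood below controls with the inhibitors in Kasumi-1. That largely follows from the choice by r, since ASS1 was near 0 throughout SKNO-1 and was itself selected on this comparison. KCNJ12 and LYG2 were low in Kasumi-1, with control means of 1.16 and 1.71 FPKM at 24 h. CCL5, a chemokine, averaged 20.1 ± 4.60 FPKM with the inhibitors and 36.0 ± 3.98 FPKM in controls at 72 h there and under 1 FPKM on average in SKNO-1. GALNT18 and KCNJ12 were near 0 in SKNO-1 as ASS1 was, while DKC1, the pseudouridine synthase of ribosome and telomerase RNA, was at 96.5 ± 2.46 FPKM with the inhibitors and 108 ± 3.19 FPKM in controls there at 72 h. Among the 10 genes ASS1 was most like SHMT2 (0.584) and MTHFD2 (0.575) and least like CHAC1 (-0.0487).

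The genes most like ASNS in the same measure were PSAT1 (0.871), the glycyl-tRNA synthetase GARS (0.801), PIR (0.779), the tryptophanyl-tRNA synthetase WARS (0.750) and CHAC1 (0.748). With MTHFD2 and PHGDH its r was 0.720 and 0.708, and with ASS1 it was 0.319. These r are a description over libraries that share groups and replicate numbers, and the difference between replicates 1 and 2 in Kasumi-1 described above enters them.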

How the data were processed

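RNA of 32 samples was sequenced. The authors deposited 1 table of FPKM per gene and library, and the submitters' processing notes name TopHat 1.4.1, Cufflinks and hg19. The strandedness, annotation release and read counts are not given in the sources used here, and RNA came from Trizol or RNeasy Plus extraction, with no note of which for which library. Depth relative to the other libraries, read from the smallest steps of 6 to 135 genes per library, was about 0.76 to 1.21, a rough guide.

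A filter on low values asked for 1 FPKM or more in 2 libraries or more, which 11890 of 23073 genes passed. On log2(FPKM + 1), limma 3.58.1 (R 4.3.3) estimated 1 mean for each of 16 groups (16 residual and 5.23 prior degrees of freedom). This scale understates the fold change of low genes. Tests were 2-sided with Benjamini-Hochberg adjustment over all genes of a contrast and a threshold of 0.05, which any verb of change requires. The replicates are labelled biological and no source culture is named, so p-values measure the spread between these libraries. The fit was tested on simulated data. Figures were drawn with matplotlib 3.10.9, and tables made with numpy 2.4.6 and pandas 2.3.3 under Python 3.11.15.

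The members, pathway lists and tests were chosen with earlier results of these data known. Pathway genes are named by a rule: in each set, up to 3 of all lists with the highest and up to 3 with the lowest log2 difference among those that passed, and ATF4. The 5 genes with the highest Pearson r with ASS1 and with ASNS are named too. Locus starts in the deposited annotation count from 0 and were converted to count from 1. No member lacks a value. Loci are hg19, while RefSeq promoter windows are GRCh38.p14. Alternatives were a pseudocount of 0.1, no filter, quantile normalization, the median of ratios, a replicate block, a fit on the libraries compared alone, a term for the library name series, and each library left out. A fit with GSK690* left out of the controls was added after the data were seen.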

Additional observations from a re-analysis of the deposited data

Results flagged for a closer look

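Over 80 groups of 4 libraries (10 genes, inhibitors or controls, 4 sets), 4 libraries stood apart from the other 3 of their group by the gap to the nearest value, where chance flags about 1 group in 20. TRIB3 stood at 8.96 FPKM with RN-1 in Kasumi-1 at 72 h (replicate 1), against 5.90 to 6.18 FPKM in the other 3 inhibitor libraries. PSAT1 stood at 54.8 FPKM with DMSO in SKNO-1 at 72 h (replicate 2), against 38.5 to 41.1 FPKM in the other 3 controls. PHGDH stood at 64.0 FPKM with DMSO in Kasumi-1 at 72 h (replicate 2), against 70.9 to 72.2 FPKM in the others. SHMT2 stood at 92.2 FPKM with DMSO in Kasumi-1 at 72 h (replicate 1), against 85.3 to 86.0 FPKM in the others.

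The response of DDIT3 at 72 h differed between the lines by a test of the difference itself, by log2 0.55 (SE 0.150, limma adjusted p = 0.0452), with 19.5 FPKM with the inhibitors and 14.5 FPKM in controls of Kasumi-1, and 11 FPKM with the inhibitors and 12.4 FPKM in controls of SKNO-1. The call ended without any 1 of 11 of the 16 libraries (adjusted p = 0.0648 to 0.136), with a pseudocount of 0.1 (0.0623), without the filter (0.0629) and in a fit on these libraries alone (0.130).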

How the results depend on the processing

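With the replicate block the counts of other pathway genes called in inhibitors against controls were 45 in Kasumi-1 at 72 h, against 25 without it, and 31 and 36 in SKNO-1 at 24 and 72 h, against 9 and 12. In Kasumi-1 at 24 h the count was 42, against 29. No share of all genes called is given for the block or the other alternative fits. Nothing particular to these pathways is therefore read from such counts. Deviations of libraries with the same replicate number correlated at 0.133 to 0.450 and 0.0432 to 0.481 in Kasumi-1 at 24 and 72 h, and at 0.294 to 0.525 and 0.145 to 0.697 in SKNO-1, over the 6 pairs of agents in each set. Each group holds only 2 numbers and the labels do not say that a number marks a shared batch, so whether they pair the libraries is not settled and the block is kept as an alternative. A fit on the libraries of the set alone called 1 and 2 in SKNO-1 at 24 and 72 h, and 4 were called in SKNO-1 at 24 h against DMSO alone, an alternative chosen after seeing the data. With 1 library left out the counts ran from 9 to 25 and from 13 to 29 in Kasumi-1 at 24 and 72 h, and from 1 to 18 and from 5 to 14 in SKNO-1. For the 10 genes at 72 against 24 h, quantile normalization and the median of ratios each left 0 calls in Kasumi-1 and 4 in SKNO-1. The count of 7 in SKNO-1 was 9 with the replicate block, 8 in the fit on its libraries alone and 6 without the filter. That of 4 in Kasumi-1 stayed at 4 in each of these. The cause of these moves was not tested. No called value changed sign under the alternatives tried. Of 33 calls of named pathway genes, 23 ended in at least 1 fit without 1 library, 14 in the fit on the set alone, 12 against DMSO alone, 8 without the filter, 5 with quantile normalization and 4 with a pseudocount of 0.1. The comparisons of RN-1 with GSK690 and of GSK690* with DMSO called 0 of the 10 genes in each limma fit tried. Depth is unknown, and with 2 libraries per group wide intervals, above all for CHAC1, limit what can be seen.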

Other observations

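Several pathway genes besides ASS1 differed between the lines without an inhibitor. PYCR1, the last enzyme of proline synthesis, averaged 0.0726 ± 0.0652 FPKM in Kasumi-1 controls and 23.6 ± 1.84 FPKM in SKNO-1 controls at 24 h, and 0.130 ± 0.0767 and 36.4 ± 6.45 FPKM at 72 h (SD, n = 4 each). Its log2 differences were -4.52 and -5.03. PYCR1 passed the filter on low values through SKNO-1, so that it differed follows from its being kept. SLC7A1, the arginine importer, was also lower in Kasumi-1, at 9.31 ± 0.426 FPKM against 37.2 ± 1.81 FPKM in SKNO-1 at 24 h and 12.3 ± 0.795 against 45.2 ± 2.98 FPKM at 72 h (log2 -1.89 and -1.80, limma adjusted p = 5.70e-17 and 1.15e-16). CBS stood at 5.21 ± 0.596 FPKM in Kasumi-1 controls and 34.2 ± 2.12 FPKM in SKNO-1 controls at 24 h (log2 -2.51, limma adjusted p = 5.69e-12). ARG2 differed by -1.09 and -1.37 at 24 and 72 h, lower in Kasumi-1 (limma adjusted p = 6.68e-06 and 2.53e-07). SLC7A11 reached 1 FPKM in all 16 SKNO-1 libraries and in 0 of Kasumi-1, so that it differed (log2 -1.85 and -1.72) also follows from its being kept. These differences lie beside 69.1% and 70.8% of all genes that passed between the lines at the same times.

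With the inhibitors PYCR1 fell in SKNO-1, to 18.5 ± 1.99 FPKM against 23.6 ± 1.84 FPKM in controls at 24 h and 27.9 ± 1.17 against 36.4 ± 6.45 FPKM at 72 h (log2 -0.34 and -0.36, limma adjusted p = 0.0334 and 0.0219). Those calls ended at 24 h without any 1 library but GSK690 replicate 2 and GSK690* replicate 2 (0.0708 to 0.189), and at 72 h without RN-1 replicate 1, GSK690* replicate 1, DMSO replicate 2 or GSK690 replicate 2 (0.0566 to 0.126). KLHL24 rose in Kasumi-1 at 24 h, to 12.3 ± 1.38 FPKM with the inhibitors against 8.64 ± 1.07 FPKM in controls (log2 0.47, limma adjusted p = 0.0341), a call that held only without DMSO replicate 2 or RN-1 replicate 1 among the 8 fits that leave out 1 library (0.0656 to 0.155 in the other 6). MANF, a secreted protein of the endoplasmic reticulum, fell in SKNO-1 at 72 h, to 102 ± 6.88 FPKM with the inhibitors against 136 ± 12 FPKM in controls (log2 -0.41, limma adjusted p = 0.0343), which ended without RN-1 replicate 1 or 2, GSK690 replicate 1, GSK690* replicate 1 or DMSO replicate 1 (0.0679 to 0.141).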
